A study of Homo sapiens with 8 samples.

Results

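The SOXC, SOXD and SOXE subgroups of the SOX transcription factor family comprise 9 genes here: SOX4, SOX11 and SOX12 (SOXC), SOX5, SOX6 and SOX13 (SOXD), and SOX8, SOX9 and SOX10 (SOXE). They were taken by gene name from a table of 35940 gene symbols, and all 9 were found, each as 1 Ensembl row. Poly(A) RNA was sequenced from ESI017, a wild type human embryonic stem cell line, in 8 libraries, 2 at each of 34, 42, 50 and 72 h of differentiation towards posterior neural fate. All groups were in N2B27, a serum-free neural medium, with 10 μM SB and 100 nM LDN, and 300 ng/mL of recombinant human WNT3A protein was added at 34 h. Cells of the 34 h group had not yet met WNT3A, and those of the later groups had 8, 16 and 38 h with it. Since libraries of cells kept without WNT3A were not analysed here, its effect and that of time cannot be told apart. The replicates 1 and 2 of the labels are an independent repeat of the whole course in the same cell line, also labelled as batches 1 and 2.

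SOX proteins bind DNA through an HMG box, a domain that fits into the minor groove and bends the helix. SOXC proteins carry a transactivation domain and are known from neural and mesenchymal progenitors and from newborn neurons, where SOX4 and SOX11 act on neuronal genes. SOXD proteins have a coiled coil through which they pair and no transactivation domain of their own, and SOX5 and SOX6 are known as partners of SOX9 in cartilage. SOXE proteins dimerise on DNA and act in neural crest, glia, cartilage and gonads, SOX9 also in neural stem cells.

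Stretches that the 9 transcripts share can draw the same reads, and the box that defines the family is shown for this reason. The following lines give 60 coding bases of each gene, from the same conserved codons at the start of the box, read from GENCODE release 29 transcripts (GRCh38). Capitals mark the 30 positions at which the 9 genes do not all carry the same base.
SOX4: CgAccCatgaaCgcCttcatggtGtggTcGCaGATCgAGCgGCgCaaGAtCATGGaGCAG
SOX11: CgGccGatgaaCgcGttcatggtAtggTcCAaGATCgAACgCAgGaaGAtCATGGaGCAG
SOX12: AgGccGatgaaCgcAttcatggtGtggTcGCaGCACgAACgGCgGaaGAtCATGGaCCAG
SOX5: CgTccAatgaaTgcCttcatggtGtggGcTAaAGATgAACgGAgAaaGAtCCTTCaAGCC
SOX6: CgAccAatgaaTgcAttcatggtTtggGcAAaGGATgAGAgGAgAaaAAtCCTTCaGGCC
SOX13: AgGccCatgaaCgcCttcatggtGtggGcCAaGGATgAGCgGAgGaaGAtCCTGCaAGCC
SOX8: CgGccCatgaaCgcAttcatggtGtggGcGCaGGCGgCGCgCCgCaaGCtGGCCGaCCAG
SOX9: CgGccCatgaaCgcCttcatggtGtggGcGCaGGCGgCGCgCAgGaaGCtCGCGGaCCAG
SOX10: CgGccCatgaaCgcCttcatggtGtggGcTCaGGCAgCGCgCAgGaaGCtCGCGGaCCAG
Within a subgroup, 48 to 58 of the 60 bases were identical over 9 pairs, and between subgroups 36 to 47 over 27 pairs. SOX9 and SOX10 were the closest pair (96.7%), while SOX4 and SOX11 had 83.3% and SOX5 and SOX6 85%. Over the whole transcripts the longest run shared by SOX9 and SOX10 was 45 bases. SOX8 and SOX9 shared a run of 37 bases, SOX11 and SOX12 35, SOX4 and SOX12 33, and SOX4 and SOX11 27. Of all windows of 31 bases in the SOX9 transcripts, 0.768% were also found in another gene of the table on the same strand. For SOX4 this share was 0.223%, for SOX11 0.184%, for SOX12 0.174% and for SOX13, the highest, 4.2%. SOX5 had 0.859% of its windows in the pseudogene SOX5P1. SOX10 overlaps POLR2F, an RNA polymerase subunit gene on the opposite strand, and shared 1.29% of its windows with it in reverse. Whether the libraries kept strand is not given in the sources used here.

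The unit is TPM, a share of all transcripts that is scaled by transcript length, so levels of different genes can be set side by side. Each library sums to 1000000, the depth is unknown, and levels are shares of the total. Libraries of 1 time point had Spearman correlations of 0.98 to 0.984 over 14908 tested genes and those of different times 0.933 to 0.982. In bulk RNA, fewer cells of a type and less RNA per cell cannot be told apart. Neural progenitor markers were unevenly present: SOX2, which pluripotent cells also express, had between 168 and 348 TPM and NES between 131 and 236 TPM, while PAX6 stayed under 1 TPM up to 50 h and had 4.01 and 3.59 TPM at 72 h. SOX1 had 1.63 and 2.14 TPM at 34 h, then 56.5 and 45.2 TPM at 72 h. SOX3 had 21.7 and 20.7 TPM at 34 h, then 23.4 and 16.4 TPM at 72 h. Of these 5 markers 4 were higher and 0 lower at 72 h against 34 h by limma at an adjusted p under 0.05 (12.7% and 11.3% of all tested genes). Of 3 pluripotency genes 2 had fallen by 72 h by limma at an adjusted p under 0.05 (11.3% of all tested genes). TDGF1 had 743 and 785 TPM at 34 h, then 2.94 and 6.13 TPM at 72 h, and POU5F1 went from 1165 and 1152 TPM to 354 and 388 TPM, so it was still abundant at the end. SP5, a direct WNT target, had 0.255 and 0.106 TPM at 34 h, then 182 and 146 TPM at 42 h.

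The 9 genes fell into 5 with at least 13.5 TPM in every library (SOX13, SOX11, SOX12, SOX4 and SOX9) and 4 with at most 3.66 TPM in any (SOX10, SOX8, SOX5 and SOX6). All 3 SOXC genes were among the abundant ones, with 1 gene each of SOXD and SOXE. SOX13 was the highest at all 4 times. At 34 h it was followed by SOX12, SOX4, SOX11 and SOX9, then by SOX10, SOX8, SOX5 and SOX6, and among neighbours in this order SOX12 and SOX4 alone overlapped in their libraries. By 72 h the order was SOX13, SOX11, SOX12, SOX4, SOX9, SOX8, SOX10, SOX5 and SOX6, with SOX11 and SOX12 as the 1 overlapping pair of neighbours. SOX9 and SOX4 overlapped at 42 and at 50 h, when SOX9 had reached the level of SOX4, SOX11 and SOX12 overlapped at both times too, and SOX10 and SOX8 overlapped at 50 h.

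**Figure D1:**
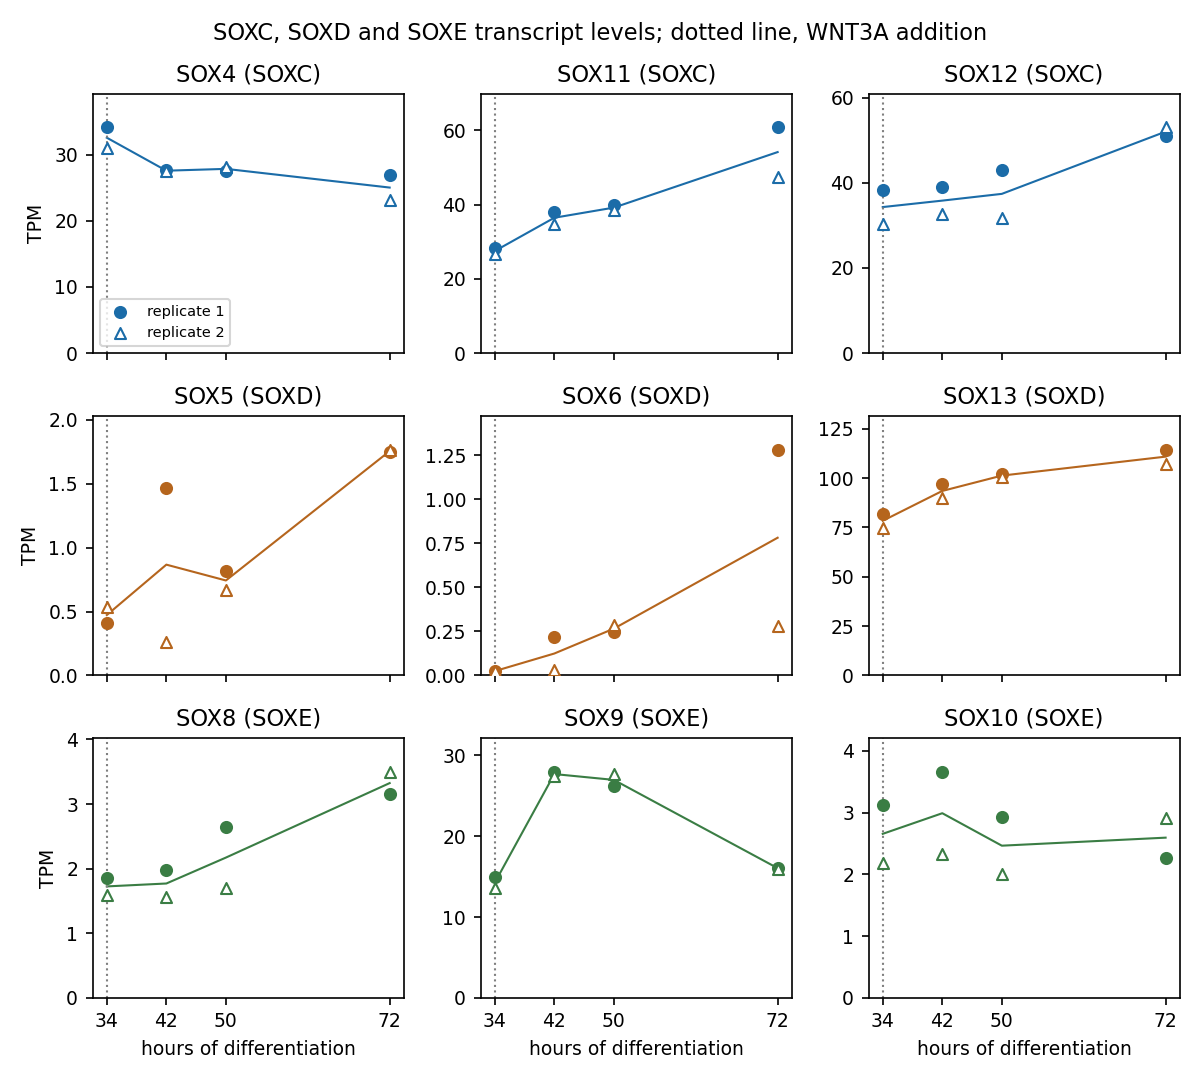
TPM of each gene (vertical axis, from 0, own scale per panel) against hours of differentiation, with replicate 1 as filled circles, replicate 2 as open triangles and a line through the means. SOX9 is high at 42 and 50 h and near its first level at 72 h, while SOX11 and SOX13 rise over the course and SOX4 is highest at 34 h.

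The comparisons with 34 h asked which of these genes changed after WNT3A was added. SOX9 had risen at 42 h and SOX11, SOX12 and SOX13 at 72 h, by limma's moderated test on log2(TPM + 1) with Benjamini-Hochberg adjustment over all 14908 tested genes and a threshold of 0.05. SOX6 did not reach 1 TPM in 2 libraries and was not tested, so 8 of the 9 genes were. At 42 h 1 of the 8 was higher and 0 lower, where 2.58% of all tested genes had changed, 1.78% upward and 0.792% downward. The count at 50 h was again 1 higher and 0 lower, against 6.26% of all genes (3.52% upward, 2.74% downward). At 72 h 3 were higher and 0 lower, against 24.0% of all (12.7% upward, 11.3% downward). Between 42 and 50 h 0 of the 8 differed by limma, where 0.0939% of all genes differed (0.0604% upward, 0.0335% downward). At an unadjusted p under 0.05 by limma the count was also 0 of the 8, where 1394 of the 14908 tested genes passed. Between 50 and 72 h 1 differed, SOX9, which fell, against 7.33% of all (2.92% upward, 4.41% downward). Libraries did not overlap with 34 h for 4 of the 8 genes at 42 h (42.4% of all), 5 at 50 h (48.4%) and 7 at 72 h (64.6%). They did not overlap for 2 genes between 42 and 50 h (37.3%) and for 7 between 50 and 72 h (51.7%). Over the whole course 3 of the 8 changed by the moderated F-test, SOX9, SOX11 and SOX13 (17.4% of all). The median log2 difference of the 8 genes from 34 h came to 0.19, 0.22 and 0.55 after 42, 50 and 72 h, where all tested genes together gave 0.01, 0.04 and 0.06.

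**Figure D2:**
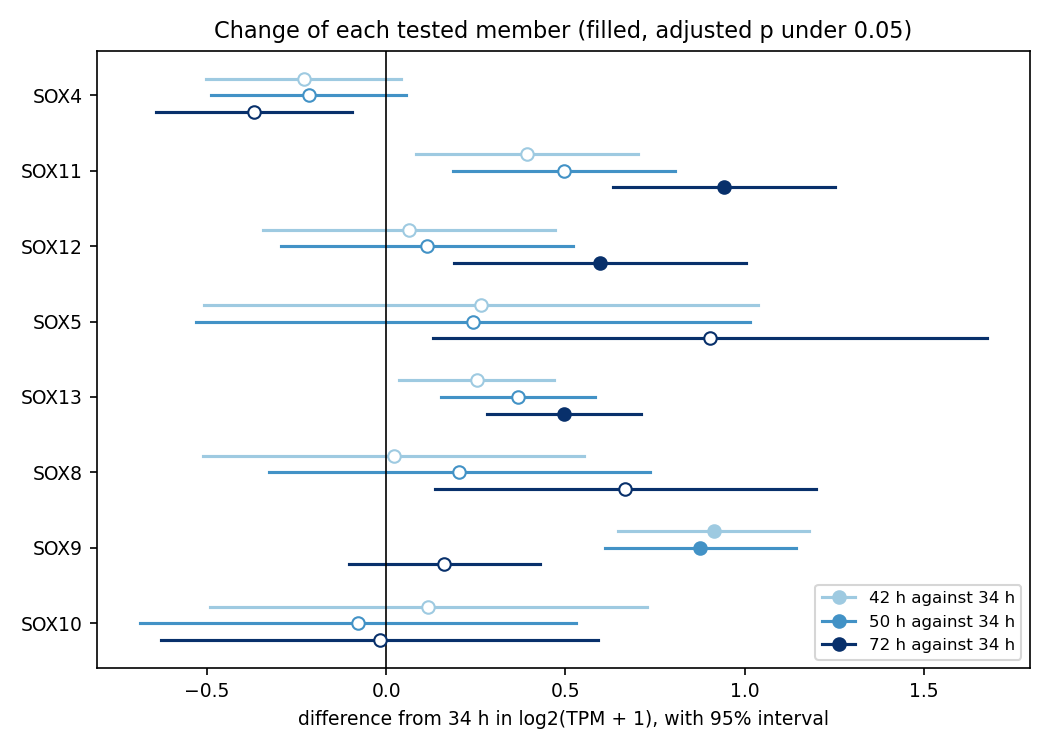
Difference from 34 h in log2(TPM + 1) for the 8 tested genes (horizontal axis) at 42, 50 and 72 h, with 95% intervals from the limma fit, filled where the adjusted p is under 0.05. SOX9 stands at 0.91 and 0.88 at 42 and 50 h but near 0.16 by 72 h, SOX11 moves outward with time to 0.94, and the SOX4 points lie below 0.

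SOX9, the SOXE factor of neural stem cells, crest and cartilage, was the 1 member that went up and came down again. It had 15.0 and 13.5 TPM (34 h in replicates 1 and 2), 27.9 and 27.5 TPM (42 h), 26.3 and 27.7 TPM (50 h) and 16.1 and 16.0 TPM (72 h). The 4 libraries of 42 and 50 h all lay above the 4 of 34 and 72 h, and the replicates differed by less than these times. The rise at 42 h was 0.91 ± 0.12 (SE) on the log2 scale, or 1.88-fold in TPM + 1 (limma adjusted p 0.00494). Replicate 1 gave 0.86 and replicate 2 gave 0.97. At 50 h SOX9 was still 0.88 ± 0.12 above 34 h (limma adjusted p 0.00365), and its difference from 42 h was -0.04 with a 95% interval of -0.30 to 0.23. The fall from 50 to 72 h was -0.71 ± 0.12 (limma adjusted p 0.00933), and the 2 replicates gave -0.67 and -0.76. At 72 h the difference from 34 h was 0.16, with an interval of -0.10 to 0.43 (limma adjusted p 0.347). The rise at 42 h missed the threshold without replicate 2 at 34 h (limma adjusted p 0.0516), and the fall did so without replicate 2 at 50 h (0.0562) or without replicate 1 or 2 at 72 h (0.0716 and 0.0631).

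Of 4 paraxial mesoderm markers 1 was tested, TBXT, and it moved with SOX9. The summed TPM of the 4 was 1.64 to 1.82 (34 h), 9.08 to 12.4 (42 h), 7.52 to 10.7 (50 h) and 3.03 to 3.71 (72 h). Nearly all of the rise was TBXT, the brachyury gene of the primitive streak and of neuromesodermal progenitors, which had 0.831 and 1.16 TPM (34 h), 11.4 and 7.92 TPM (42 h), 9.62 and 6.83 TPM (50 h) and 1.62 and 1.87 TPM (72 h). TBXT rose by 2.40 ± 0.24 at 42 h and fell by 1.73 ± 0.24 from 50 to 72 h (limma adjusted p 0.00149 and 0.00488). MSGN1, a defining gene of presomitic mesoderm, was listed at 0 in all 8 libraries, and TBX6 and MEOX1 had at most 1.07 and 0.767 TPM, both highest at 72 h. Over 4 endoderm markers the sum went from 12.2 and 13.6 TPM at 34 h to 0.598 and 0.866 TPM at 72 h, nearly all of it FOXA2, while SOX17 was listed at 0 throughout. The part of mesoderm or endoderm cells in the SOX9 values was not tested.

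SOX10, which marks migrating crest and its glia and is close to SOX9 in sequence, had 3.13 and 2.18 TPM (34 h), 3.66 and 2.32 TPM (42 h), 2.93 and 2.00 TPM (50 h) and 2.27 and 2.92 TPM (72 h). Its libraries overlapped between all times. The difference from 34 h was 0.12 at 42 h with an interval of -0.49 to 0.73, beside 0.91 for SOX9, a contrast between the genes that was not tested, and -0.02 at 72 h with an interval of -0.63 to 0.59. POLR2F, the overlapping gene on the other strand, had between 132 and 186 TPM, and its part in the SOX10 values was not tested. SOX8, the third SOXE gene, had 1.86 and 1.59 TPM (34 h), 1.98 and 1.56 TPM (42 h), 2.64 and 1.70 TPM (50 h) and 3.15 and 3.49 TPM (72 h). Both 72 h libraries of SOX8 lay above all earlier ones, but the difference from 34 h of 0.67 ± 0.23 missed the threshold (limma adjusted p 0.0712), and passed it with a variance that did not follow the mean (0.0387).

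SOX9 made up 75.0% and 78.2% of the summed TPM of the SOXE genes at 34 h, 83.2% to 87.6% at 42 h and 71.4% to 74.8% at 72 h. The SOXE sum was 18.6 ± 1.87 TPM (SD, n = 2) at 34 h, 32.5 ± 1.59 at 42 h, 31.6 ± 0.313 at 50 h and 22.0 ± 0.619 at 72 h. SOX8 held 9.18% to 9.32% of the sum at 34 h and 14.6% to 15.6% at 72 h.

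In SOXC, the genes of neural progenitors and newborn neurons, SOX11 rose at 72 h and SOX4 was at its lowest there without passing the test. SOX11 had 28.4 and 26.6 TPM (34 h), 38.0 and 34.8 TPM (42 h), 39.9 and 38.5 TPM (50 h) and 60.8 and 47.5 TPM (72 h). Its libraries did not overlap between any 2 times. The log2 difference from 34 h was 0.39 ± 0.13 at 42 h and 0.50 ± 0.13 at 50 h, short of the threshold (limma adjusted p 0.236 and 0.0726), and 0.94 ± 0.13 at 72 h, or 1.92-fold (0.00196), where replicate 1 gave 1.07 and replicate 2 gave 0.81. SOX4 had 34.1 and 30.99 TPM (34 h), 27.6 and 27.5 TPM (42 h), 27.5 and 28.2 TPM (50 h) and 26.9 and 23.2 TPM (72 h). Both 34 h libraries lay above the 6 later ones. The SOX4 difference at 72 h was -0.37 ± 0.12, with an interval of -0.64 to -0.10, and missed the threshold (limma adjusted p 0.0558). It passed after TMM rescaling (0.0280), quantile normalization (0.0241) and adjustment for GC content (0.0203), and its adjusted p ran from 0.0203 to 1 among the settings tried, with 1 direction throughout.

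SOX12, the third SOXC gene, had 38.3 and 30.2 TPM (34 h), 39.0 and 32.6 TPM (42 h), 43.1 and 31.7 TPM (50 h) and 51.0 and 53.0 TPM (72 h). The first 3 times overlapped, and both 72 h libraries lay above all of them. The rise at 72 h against 34 h was 0.60 ± 0.18, or 1.51-fold, and passed narrowly (limma adjusted p 0.0433, and 0.0191 with the replicate number as a block). That call was lost in 11 of 20 alternatives, among them TMM rescaling (0.0538), no filter on low values (0.0868) and leaving out replicate 2 at 34 h (0.221) or replicate 1 or 2 at 72 h (0.132 and 0.160).

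SOX4 thus held 33.8% and 35.3% of the summed SOXC TPM at 34 h, 24.9% to 28.99% in the libraries of 42 and 50 h and 18.8% and 19.4% at 72 h, and the 3 ranges did not overlap. The share of SOX11 went from 28.1% and 30.3% to 38.4% and 43.8%, and that of SOX12 from 34.4% and 38.0% to 36.8% and 42.9%, the latter overlapping. In TPM the SOXC sum came to 94.3 ± 9.17, 99.8 ± 6.92, 104 ± 8.58 and 131 ± 10.6 in time order (SD, n = 2). These shares are a description, since the 3 genes were read in the same libraries.

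**Figure D3:**
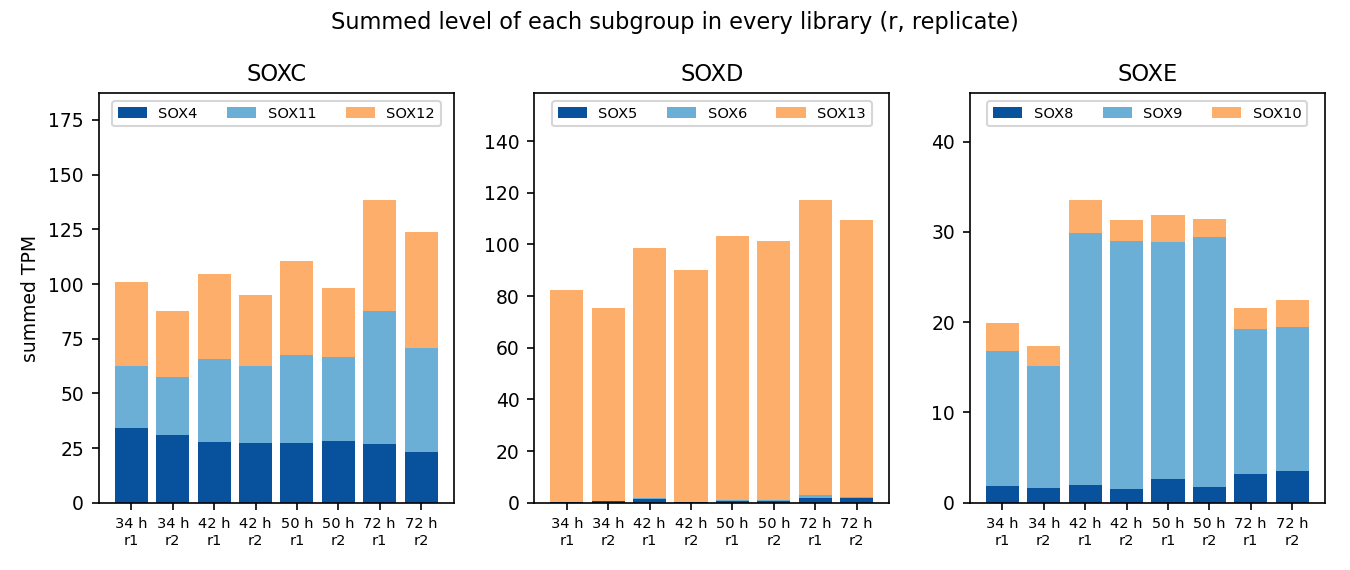
Summed TPM of the SOXC, SOXD and SOXE genes in every library (vertical axis from 0), stacked by gene, with the libraries ordered by time and replicate (r) on the horizontal axis. The SOXC bars grow while their SOX4 part shrinks, SOX13 fills nearly all of the SOXD bars, and the SOXE bars are tallest at 42 and 50 h through SOX9.

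SOX13, the SOXD gene known from lymphocytes and from binding to TCF factors of the WNT pathway, was the most abundant of the 9 genes and rose in small steps. It had 81.9 and 74.7 TPM (34 h), 96.9 and 90.0 TPM (42 h), 102 and 100 TPM (50 h) and 114 and 107 TPM (72 h). No 2 times overlapped. The difference from 34 h was 0.25 ± 0.09 at 42 h, 0.37 ± 0.09 at 50 h (limma adjusted p 0.274 and 0.0601) and 0.50 ± 0.09 at 72 h, or 1.41-fold (0.00691), where replicate 1 gave 0.48 and replicate 2 gave 0.52. The 72 h call was lost without replicate 2 at 34 h (0.0532) or replicate 1 at 72 h (0.0581). SOX13 held between 97.4% and 99.7% of the summed SOXD TPM in all libraries.

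SOX5 and SOX6, the long-bodied SOXD genes that act beside SOX9 in cartilage, stayed near the bottom of the range. SOX5 had 0.413 and 0.532 TPM (34 h), 1.47 and 0.264 TPM (42 h), 0.813 and 0.672 TPM (50 h) and 1.74 and 1.77 TPM (72 h). The 72 h libraries were the highest, with 1 library of 42 h close to them. The SOX5 difference at 72 h of 0.90 ± 0.34 (interval 0.13 to 1.68) missed the threshold (limma adjusted p 0.0881) and passed when the compared times were fitted alone (0.0335) and without replicate 1 or 2 at 42 h (0.0416 and 0.0366). SOX6 had 0.0233 and 0.0262 TPM (34 h), 0.217 and 0.0323 TPM (42 h), 0.248 and 0.284 TPM (50 h) and 1.28 and 0.282 TPM (72 h). The 2 libraries at 72 h stood further apart than those of any other time, and the second lay between those of 50 h. C11orf58, a coding gene that overlaps SOX6 on the opposite strand and shared 0.957% of its windows of 31 bases, had between 186 and 232 TPM, and its part in the SOX6 values was not tested.

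The 9 genes lie on 9 different chromosomes. By GENCODE release 29 on GRCh38 the SOXC genes have 1 transcript of 1 exon each: SOX4 (ENSG00000124766, chromosome 6, 21592768 to 21598619, plus strand), SOX11 (ENSG00000176887, chromosome 2, 5692667 to 5701385, plus) and SOX12 (ENSG00000177732, chromosome 20, 325595 to 330224, plus). SOX9 (ENSG00000125398, chromosome 17, 72121020 to 72126420, plus) has 3 exons, and SOX13 (ENSG00000143842, chromosome 1, 204073115 to 204127743, plus) up to 14. SOX8 (ENSG00000005513) lies on chromosome 16, 981808 to 986979, plus strand, and SOX10 (ENSG00000100146) on chromosome 22, 37970686 to 37987422, minus strand. SOX5 (ENSG00000134532, chromosome 12, 23529500 to 24562544) and SOX6 (ENSG00000110693, chromosome 11, 15966449 to 16739591), both on the minus strand, have 22 and 17 transcripts.

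Of the genes that rose at 72 h, SOX12 and SOX13 have a promoter in the RefSeq table used here (GRCh38.p14), and the 250 bases before their start sites are shown because both genes rose after WNT3A was added. Capitals would mark a TCF/LEF motif (CTTTGAT or CTTTGAA) or a SOX motif (AACAAT or AACAAAG), searched on both strands.
SOX12 (chr20:325302-325551, plus strand): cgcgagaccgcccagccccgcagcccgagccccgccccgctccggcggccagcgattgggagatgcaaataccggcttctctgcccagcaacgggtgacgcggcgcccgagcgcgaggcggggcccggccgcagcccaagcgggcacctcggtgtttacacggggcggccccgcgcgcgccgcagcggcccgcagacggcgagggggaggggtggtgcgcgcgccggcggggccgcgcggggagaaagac
SOX13 (chr1:204072865-204073114, plus strand): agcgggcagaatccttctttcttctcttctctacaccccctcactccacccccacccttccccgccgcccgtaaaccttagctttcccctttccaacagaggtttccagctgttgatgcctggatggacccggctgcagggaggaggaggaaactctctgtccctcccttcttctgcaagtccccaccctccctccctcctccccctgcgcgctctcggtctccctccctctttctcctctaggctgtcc
Neither window holds any of the 4 motifs. Over 34788 promoter windows of that length, 2.27% hold CTTTGAT, 3.8% CTTTGAA, 9% AACAAT and 4.51% AACAAAG. The SOX12 window has 79.2% G and C and the SOX13 window 60.8%.

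Genes that SOXE and SOXD factors are known to act with or on were counted in 3 lists, with all counts by limma at an adjusted p under 0.05. The neural crest list had 14 genes, of which 10 were tested. Against 34 h, 42 h had 1 higher and 1 lower, 50 h had 3 and 1, and 72 h had 4 and 2, where 2.58%, 6.26% and 24.0% of all tested genes had changed. The median difference of the list was 0.38, 0.39 and 0.11, against 0.01, 0.04 and 0.06 over all genes. TFAP2A, a defining crest factor, was at most 0.795 TPM in any library, and its relative TFAP2B at most 0.0594 TPM. FOXD3, a crest specifier also known from pluripotent cells, fell from 4.65 and 4.48 TPM at 34 h to 0.688 and 0.852 TPM at 42 h (limma adjusted p 0.00894), while SOX9 rose. MSX1, a BMP and WNT responsive homeobox gene of the neural border, was listed at 0 in both 34 h libraries and had 1.98 and 2.12 TPM at 42 h. SNAI2, which drives crest delamination, had 0.339 and 0.360 TPM at 34 h, then 6.99 and 5.19 TPM at 72 h (limma adjusted p 3.153e-04), when SOX9 was back near its 34 h level.

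The cartilage matrix list had 7 tested genes of 10, with 1, 1 and 3 higher and 0 lower at 42, 50 and 72 h (1.78%, 3.52% and 12.7% of all genes higher). COL2A1, the type II collagen gene that SOX9 activates in cartilage, was the 1 member that rose at 42 h, from 12.4 and 8.68 TPM to 28.4 and 24.2 TPM (1.26 ± 0.18, limma adjusted p 0.00914). It had 33.9 and 28.4 TPM at 50 h and stayed at 26.7 and 28.4 TPM at 72 h, when SOX9 had fallen. Its difference between 50 and 72 h was -0.17 (limma adjusted p 0.643) where that of SOX9 was -0.71, and the difference between the 2 genes was not tested. COL9A1 and COL9A3, type IX collagen genes, had risen at 72 h by 0.75 and 0.66 (limma adjusted p 0.00348 and 0.00691). ACAN, the aggrecan gene, had at most 1.28 TPM and MATN1 at most 0.223 TPM.

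Among 10 glial and melanocyte genes 7 were tested. Against 34 h, 42 h had 1 higher and 0 lower, 50 h had 2 and 1, and 72 h had 2 and 2, where 1.78% and 0.792%, 3.52% and 2.74%, and 12.7% and 11.3% of all genes were higher and lower. ERBB3, a receptor gene of the SOX10 lineage, fell from 30.6 and 25.4 TPM at 34 h to 7.99 and 8.66 TPM at 72 h (-1.63 ± 0.14, limma adjusted p 1.534e-04). FABP7 and SLC1A3, genes of radial glia, rose by 1.03 each (limma adjusted p 0.00173 and 0.0209), and the SOX10 difference over the same times was -0.02. EDNRB, an endothelin receptor gene of crest and melanocyte precursors, rose by 1.20 at 42 h and 1.41 at 50 h (limma adjusted p 0.0422 and 0.0116). At 72 h its difference from 34 h was 0.69 (limma adjusted p 0.0726, and 0.0491 with the replicate number as a block). Of the gliogenic factors, NFIB fell by 0.95 at 72 h (limma adjusted p 0.0258), and NFIA and OLIG2 had at most 0.737 and 0.407 TPM.

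**Figure D4:**
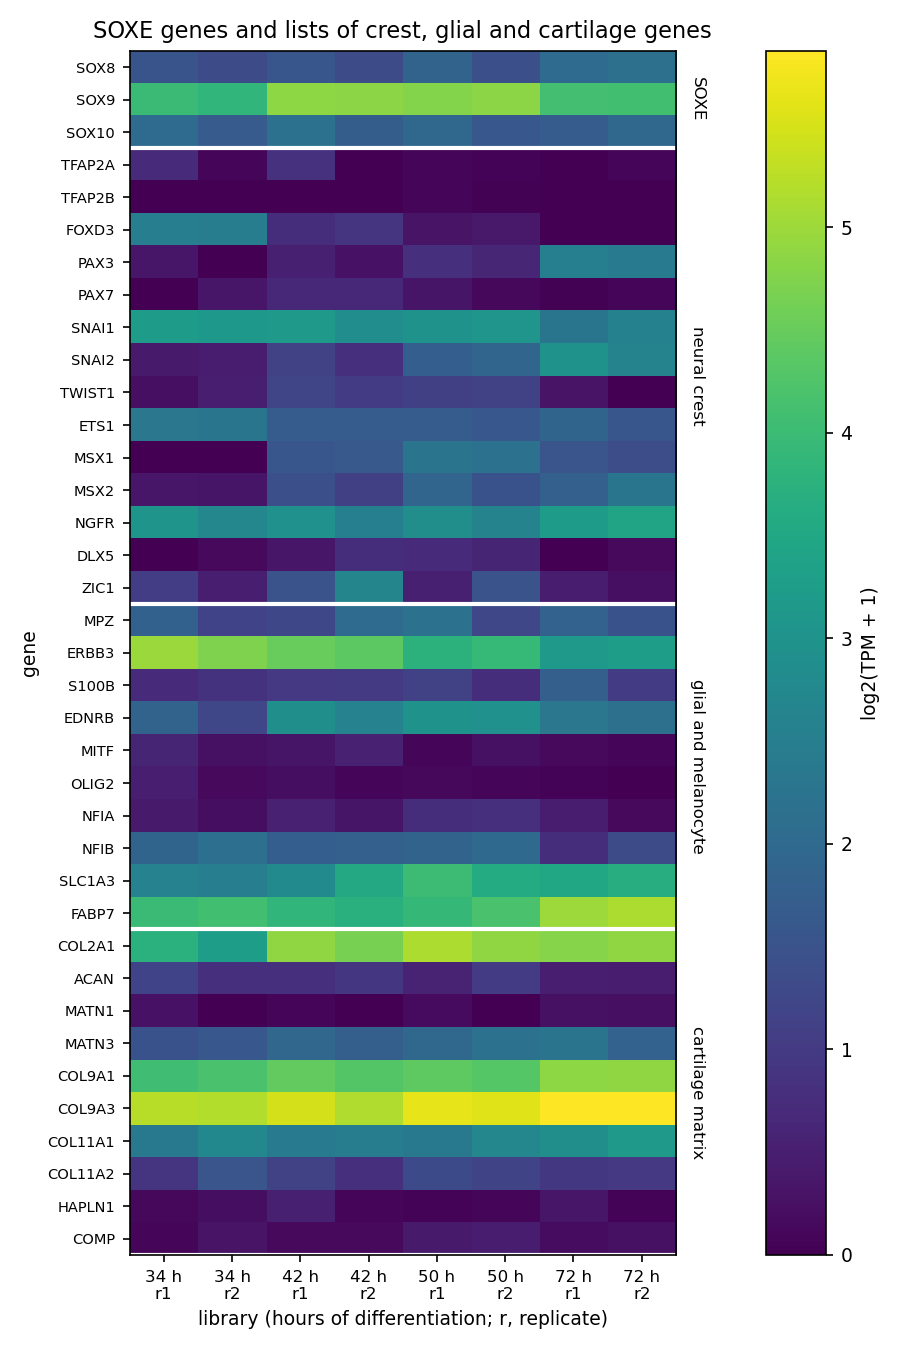
Level in log2(TPM + 1), as colour, of the SOXE genes and of the neural crest, glial and melanocyte, and cartilage matrix lists (rows) in the 8 libraries (columns, by time and replicate r). SOX9 and COL2A1 brighten together at 42 h and COL2A1 stays bright at 72 h, TFAP2A and TFAP2B are dark throughout, and SNAI2 and PAX3 brighten at 72 h.

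Neuronal genes, the setting in which SOX4 and SOX11 are best known, had 5 tested genes of 10, with 3 higher and 0 lower at 72 h (12.7% and 11.3% of all genes). STMN2 rose from 0.320 and 0.256 TPM at 34 h to 8.01 and 7.10 TPM at 72 h (limma adjusted p 4.937e-05), MAP2 from 29.7 and 27.6 TPM to 69.8 and 65.3 TPM (0.00260), and DCX by 0.80 (0.0273). TUBB3, a tubulin gene that SOX11 activates in neurons, had between 168 and 311 TPM and a difference of -0.34 at 72 h (limma adjusted p 0.209), and NEUROD1 was at most 0.0247 TPM. Of 10 other SOX genes 5 were tested, and 3 were higher and 0 lower at 72 h (12.7% and 11.3% of all genes). With the replicate number as a block 1 was lower, SOX15, whose difference was -0.94 (limma adjusted p 0.00931, and 0.0791 without the block). SOX1, SOX2 and SOX21 rose at 72 h against 34 h, by 4.16, 0.64 and 1.37 (limma adjusted p 6.531e-06, 0.00117 and 8.920e-04), beside 0.94 for SOX11.

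The genes whose levels followed each member most closely were sought over the 8 libraries among 10845 other genes with a mean of at least 5 TPM, by Pearson's r of log2(TPM + 1). For SOX9 they were PLA2G7 (0.993) and ZBTB40 (0.99). PLA2G7, which encodes a secreted phospholipase, had 5.27 and 4.86 TPM at 34 h, 14.2 and 15.2 TPM at 42 h, then 5.38 and 6.16 TPM at 72 h, the same up and down course. For SOX11 they were ZNF367 (0.994) and BCL7A (0.988), for SOX13 CITED2 (0.988) and SPSB4 (0.984), and for SOX4 DBT (0.988) and G3BP2 (0.979). SOX12 was most like EVI5L (0.994) and RPS19 (0.992), and SOX8 most like B3GALT6 (0.994) and BTBD2 (0.991). SOX10 (AKT1S1 0.951, UBBP4 0.948) and SOX5 (TPP1 0.959, TCHP 0.953) had the lowest values. With 8 libraries that share their times and total, the highest of so many correlations are a description.

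The replicates of SOX12, SOX8 and SOX10 differed in the same way. Replicate 1 was above replicate 2 at 34, 42 and 50 h and below it at 72 h in these 3 of the 8 tested genes (14.2% of all tested genes showed this order). The difference, replicate 1 minus replicate 2 on the log2 scale, was 0.33, 0.25, 0.43 and -0.05 for SOX12, 0.14, 0.22, 0.43 and -0.11 for SOX8, and 0.38, 0.49, 0.39 and -0.26 for SOX10. The 3 genes also have the highest GC content of the 8 in their longest transcript, 62%, 63.8% and 63.5%, and lie at the 90.2th, 94.2th and 93.4th percentile of tested genes. Across 14785 tested genes, which are not independent replicates, GC content and the difference between replicates had a Spearman correlation of 0.21 at 34 h, 0.306 at 42 h, 0.426 at 50 h and -0.302 at 72 h. SOX9, at 51%, had differences between -0.07 and 0.14. The correlation of GC content with the change from 34 to 72 h was 0.0754, and after adjustment for GC content in each library the SOX12 rise at 72 h was 0.46 (limma adjusted p 0.0182) against 0.60 without it.

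**Figure D5:**
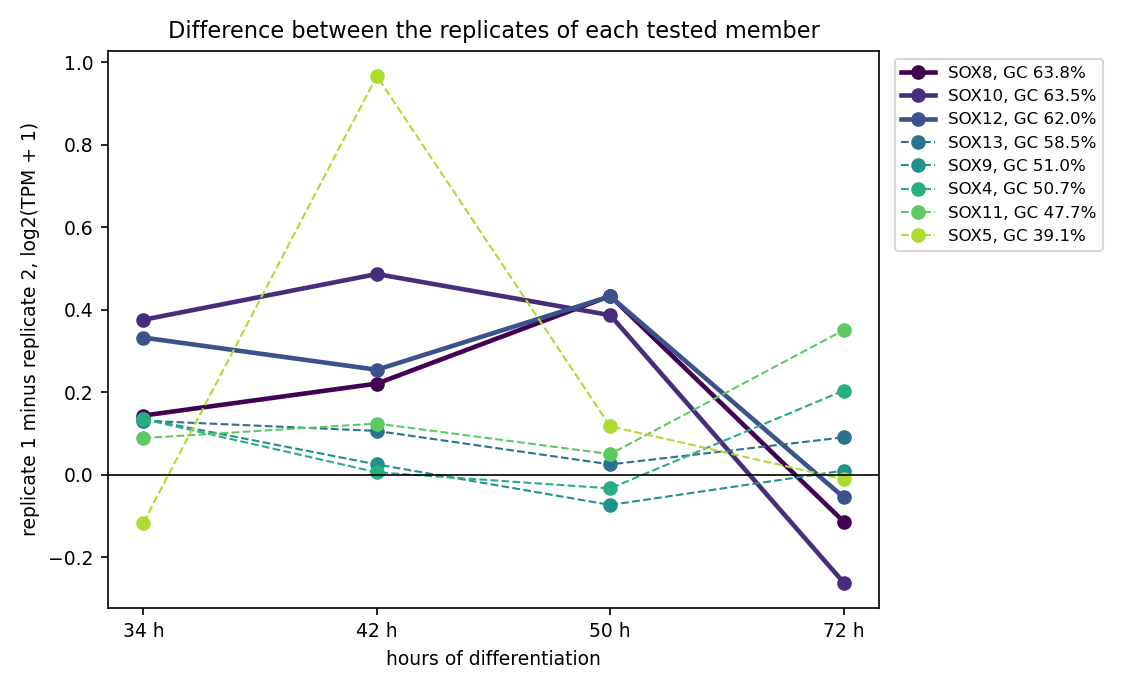
Replicate 1 minus replicate 2 in log2(TPM + 1) (vertical axis) at the 4 times (horizontal axis) for the 8 tested genes, coloured and listed by the GC content of the longest transcript. Thick lines mark SOX8, SOX10 and SOX12, which lie above 0 at 34, 42 and 50 h and below it at 72 h, and the SOX5 point at 42 h is the furthest from 0.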

How the data were processed

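The authors deposited 1 table of TPM per Ensembl gene, with 1 column for each of the 8 libraries, and all were used. Salmon 1.9.0 and GRCh38 are named in the submitters' processing notes; the annotation, filters and strand setting are not given in the sources used here. TPM of rows with the same symbol were summed (37951 rows, 35940 symbols). The 14908 symbols that reached 1 TPM in 2 or more libraries were tested as log2(TPM + 1), which understates changes of low genes, with 1 mean per time point for all 8 libraries in limma 3.58.1 (R 4.3.3), moderated with a mean trend, two-sided, Benjamini-Hochberg over all tested genes. Intervals are 95% and use the moderated degrees of freedom, and all folds are ratios of TPM + 1. Exact permutation of 2 against 2 libraries reaches no p below 0.333, so it was not used. TPM keeps no depth, so no counting interval was computed. The test was tested on simulated data.

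The 9 members and 12 gene lists were chosen with earlier results of these data known. Named genes are the members, list genes a result turns on, and the 2 genes most like each tested member. The 7 long noncoding RNA genes of 1 list had no row in the table and were not analysed here, and 1 gene of another list is not reported here. Motifs and sequences were chosen after the values were seen. The batch label pairs the replicates; differences between replicates correlated across genes at 0.0949, 0.195 and 0.142 among 34, 42 and 50 h, and at -0.0445, -0.0779 and -0.104 with 72 h. The replicate block, as an alternative, changed no call of a member. TMM factors (trimmed mean of M values) were computed from the TPM themselves.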

Additional observations from a re-analysis of the deposited data

How the results depend on the processing

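The count of members changed was recomputed under a pseudocount of 0.1, no filter, a mean of at least 5 TPM, TMM rescaling, quantile normalization, a variance without trend, the replicate block, Ensembl rows apart, mitochondrial genes left out, the compared times alone, a test that asks for a log2 change beyond 1, each library left out in turn and, added after the data were seen, adjustment for GC content. Under the test against a log2 change of 1 the count was 0 at 42, 50 and 72 h against 34 h and 0 for 72 h against 50 h. It called 0.275% of all genes at 42 h and 0.563% at 50 h against 34 h, and 0.315% for 72 h against 50 h. At an unadjusted p under 0.05 the count of members was also 0 in each, and the unadjusted share of all genes was not computed for this test. Leaving out single libraries gave counts of 0 to 1 at 42 h against 34 h, 1 at 50 h, 1 to 3 at 72 h against 34 h, 0 to 1 between 50 and 72 h, and 1 to 3 over the course. Without replicate 2 at 34 h, SOX11 alone remained at 72 h and SOX9 alone over the course; without replicate 1 at 72 h, SOX11 alone remained at 72 h. The replicate block moved none of these counts (1, 1, 3, 0 and 1 in the 5 comparisons, where it called 2.7%, 6.26%, 24.2%, 0.047% and 7.37% of all genes). TMM rescaling also called 3 at 72 h, with SOX4 in place of SOX12, and quantile normalization and GC adjustment called 4, with SOX4 beside SOX11, SOX12 and SOX13. Of all genes these settings called 23.8%, 23% and 28.4% at 72 h against 34 h, the test against a log2 change of 1 called 2.36%, and fits without 1 library called 12.5% to 24.8%. Those fits called 1.08% to 2.61% of all genes at 42 h against 34 h, 2.79% to 5.47% at 50 h and 2.17% to 6.28% between 50 and 72 h. Of the recomputed differences of single members, 753 stayed on their side of the threshold, 22 lost a call, 7 gained one and 0 reversed one. Most of these differences had no call to lose, since only SOX9, SOX11, SOX12 and SOX13 were called at the main settings. With 2 libraries per time and unknown depth, differences of the scarce genes SOX5, SOX6, SOX8 and SOX10 are poorly bounded.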
